A study of Mus musculus with 5 samples.

Results

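Mature CD8 T cells in murine small cell lung cancer (SCLC) were examined as 1707 cell barcodes, which came from 53497 barcodes that passed filters in 2 tumour libraries and from 86606 in all 5 libraries of the series. A barcode was counted as a mature CD8 T cell if it had more than 150 genes, at most 20% mitochondrial UMIs, at least 1 UMI of the CD3 chains (Cd3e, Cd3d and Cd3g summed), at least 1 UMI of the CD8 coreceptor (Cd8a and Cd8b1 summed), and 0 UMIs of Cd4, Rag2 and Dntt. A UMI is a molecular tag that counts one captured RNA molecule once. The barcodes were thus chosen by their measured counts of these 8 genes, whose own levels are given below only as a description. By this rule the library from ERBB2i-treated tumour held 1099 CD8 barcodes of 26294 and the library from combination-treated tumour held 608 of 27203.

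The study profiled lung tumours of Rb1 fl/fl x Trp53 fl/fl mice by single-cell RNA sequencing. In all groups, inhaled adenoviral Cre deleted both tumour suppressors in the lung and tumours grew for about 6 months before therapy. The ERBB2i group received mubritinib, which blocks the kinase ERBB2, a growth factor receptor, at 10 mg/kg every 3 days. The combination group received mubritinib and anti-PD-1, an antibody that blocks the inhibitory receptor PD-1 on T cells, each at 10 mg/kg every 3 days. Recombination depends on which lung cells the inhaled virus reached. The labels name tumours of neuroendocrine origin and an epithelial cell type. Each group was 1 library. Differences between ERBB2i and combination therefore have no replicate check, no p-value is given, and all intervals are 95% intervals that cover counting error only; treatment, animal and library cannot be told apart.

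CD8 T cells recognise peptides that other cells display on class I MHC molecules, through the T cell receptor and the CD8 coreceptor. After activation they make granzymes and perforin, which kill target cells, and chemokines such as CCL5, which draw in other leukocytes. Naive and central memory cells instead keep the lymph node homing receptor CCR7 and the transcription factors TCF7 and LEF1, and long stimulation in tumours is known to raise inhibitory receptors such as PD-1.

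CD8 barcodes made up 4.18% of the ERBB2i library (interval 3.94 to 4.43%) and 2.24% of the combination library (2.06 to 2.42%). The share was lower in combination than in ERBB2i, and the intervals did not overlap. Among barcodes gated as CD8 or CD4 T cells, however, CD8 barcodes were 75.9% (73.6 to 78.1%) in ERBB2i and 84.2% (81.3 to 86.8%) in combination, since CD4 barcodes numbered 349 and 114. The CD8 fraction of gated T cells was thus the higher one in combination. Barcodes with 0 CD3 UMIs and a UMI of the NK genes Ncr1 or Klrb1c (NK barcodes below) numbered 361 in ERBB2i and 129 in combination, whereas those with 0 CD3 UMIs and at least 2 UMIs of B cell genes such as Cd79a, Cd79b and Ms4a1 (B cell barcodes) numbered 759 and 1157.

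The depth of the CD8 barcodes was nearly equal in both libraries. They held 2138931 UMIs in ERBB2i and 1254074 in combination, with medians of 1338 and 1339.5 UMIs and of 828 and 844.5 genes. The median mitochondrial share was 2.00% and 1.88%. Of barcode sequences, 782 occurred in both libraries, of which 1 was a CD8 barcode in both. The 5 libraries had median depths between 1225 and 5281 UMIs, and barcodes were 24 bases long in these 2 libraries and 27 bases in the other 3.

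The rule works at a low threshold. Of the CD8 barcodes, 374 in ERBB2i (34.03%) and 203 in combination (33.4%) passed with exactly 1 Cd8a or Cd8b1 UMI. Their Ccl5 level was 10424 and 5392 UMIs per 1000000 UMIs (CPM), against 12762 and 6133 CPM in the CD8 barcodes with 2 or more Cd8 UMIs. Just outside the rule, 16 barcodes in ERBB2i and 6 in combination failed through a Cd4 UMI, and their Ccl5 level was 9771 and 2986 CPM. Another 6 and 4 failed through Rag2 or Dntt, which rearrange and extend receptor genes in immature thymocytes. Barcodes with a CD3 UMI and none of Cd8a, Cd8b1, Cd4, Rag2 or Dntt were more numerous than the CD8 barcodes, at 2216 and 950, with Ccl5 at 2637 and 1356 CPM.

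Cd8a and Cd8b1 were used to choose the barcodes, and their levels are given as a description only. Cd8a stood at 519 CPM in ERBB2i and 546 CPM in combination, and Cd8b1 at 914 and 807 CPM. The further markers of these cells, Ccl5, Nkg7 and Gzmk, were not part of the rule. After each barcode was thinned to 500 UMIs at random, so that depth was equal, 70.2% of CD8 barcodes in ERBB2i and 64.6% in combination held Ccl5, whereas B cell barcodes, which should lack it, held it at 6.85% and 2.16%. The granule gene Nkg7 was found in 58.6% and 54.1% of CD8 barcodes against 1.58% and 0.691% of B cell barcodes. Gzmk, a granzyme of memory-like CD8 T cells, was found in 17.8% and 9.54%, and in 0 of 759 and 0 of 1157 B cell barcodes, which allows shares of up to 0.395% and 0.259% by the limit of 3 counts. Limits beside a count of 0 follow that rule and are not 95% intervals. B cell barcodes had median depths of 1083 and 1185 UMIs before thinning. Foxp3, the factor of regulatory T cells, and Ptcra, the surrogate receptor chain of immature thymocytes, had 0 UMIs in the CD8 barcodes of both libraries, which allows up to 1.40 and 2.39 CPM. The other genes of these 2 lists were not absent. The list of immature thymocyte genes summed to 1508 and 1954 CPM, with 2 or more UMIs in 46.8% and 51.5% of CD8 barcodes. It holds Mki67 and Satb1, which are also on the cell cycle and naive lists, and Cd24a, which was tumour-marked (defined below) and stood at 187 and 789 CPM. The list of regulatory and CD4 T cell genes summed to 153 CPM in both libraries.

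The same rule applied to the other libraries took 47 barcodes in vehicle, 713 in anti-PD-1 and 840 in the library labelled combination in response. The 47 barcodes of vehicle were few, with Ccl5 at 22823 CPM, Nkg7 at 2488 CPM, 0 Ptcra UMIs and 0 barcodes that failed through Rag2 or Dntt. In anti-PD-1 and combination in response, Ptcra was detected at 34.01 and 19.7 CPM, and Ccl5 stood at 1173 and 1450 CPM, far below the 12028 and 5918 CPM of ERBB2i and combination. In these 2 libraries 3144 and 5649 barcodes failed the rule through Rag2 or Dntt. The description below covers ERBB2i and combination, the libraries for which the members were defined.

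Much of the RNA in the CD8 barcodes was tumour RNA. From 17 neuroendocrine genes such as Chga and Calca, the estimated tumour contribution to CD8 barcodes was 43.0% of UMIs in ERBB2i and 45.4% in combination. A second estimate from a broad set of 1077 and 979 tumour genes gave 45.5% and 47.0%. This RNA was unevenly spread: 256 CD8 barcodes in ERBB2i (23.3%, interval 20.8 to 25.9%) and 144 in combination (23.7%, 20.4 to 27.3%) carried the broad set at 50% or more of its level in a median tumour barcode. These tumour-rich barcodes held 46.1% and 44.5% of all CD8 barcode UMIs, and had median depths of 3607 and 3490 UMIs against 1185 and 1197 in the remaining 843 and 464 tumour-poor barcodes. Among tumour-poor barcodes the estimate was 18.2% and 20.02%. A threshold at this level is a division of a range: 83 and 59 barcodes lay between 0.4 and 0.6 of the tumour level. Values in tumour-poor barcodes are given beside the main ones below. A gene is called tumour-marked where tumour RNA was estimated at 25% or more of its UMIs in either library.

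**Figure D1:**
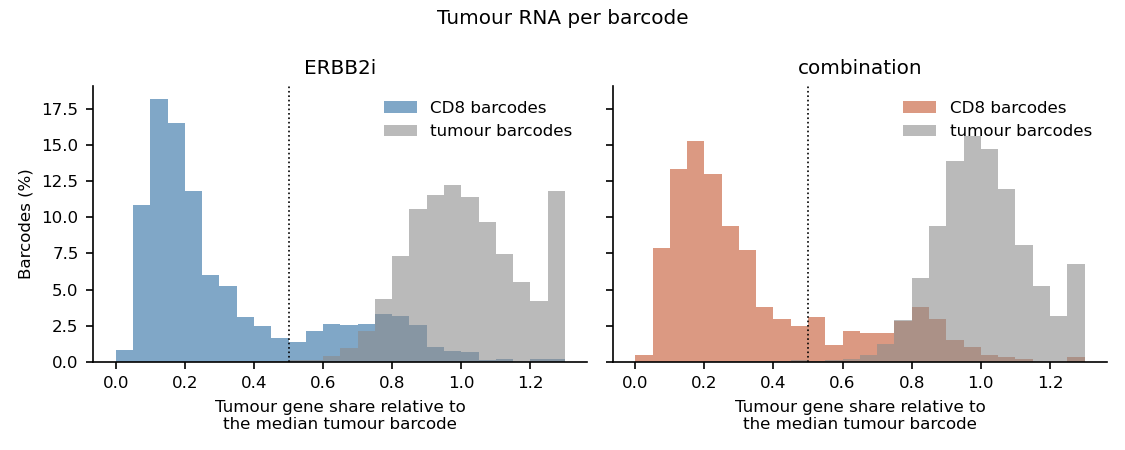
Share of CD8 barcodes and of tumour barcodes (y axis, percent of each kind) by their level of the broad tumour gene set relative to the median tumour barcode (x axis, ratio, bins of equal width), one panel each for ERBB2i and combination; the last bin also collects all higher values and the dotted line stands at 0.5. Most CD8 barcodes lay at a low level in both libraries, and 256 and 144 of them lay at or above the line, where the tumour barcodes lie.

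Doublets were not removed. The automatic threshold of Scrublet, a doublet caller, marked 1 barcode in ERBB2i and 0 in combination, too few for a working threshold in libraries of this size. A fixed score above 0.25 marked 88 and 50 CD8 barcodes. RNA of other cell types differed between the libraries as well. All 9 of 9 tested myeloid markers were 2-fold or more higher in CD8 barcodes of combination, with a summed level of 164 CPM in ERBB2i and 986 CPM in combination. Itgam had 0 UMIs in all barcodes of the 5 libraries, so its 0 in CD8 barcodes carries no information. Lyz2, a lysozyme gene of myeloid cells, was found after thinning in 1.64% of CD8 barcodes in ERBB2i and 12.3% in combination. In B cell barcodes the corresponding shares were 2.90% and 14.9%, and in tumour barcodes 0.800% and 8.23%, so that CD8 barcodes lay below the B cell barcodes of their own library. Summed B cell markers stood at 71.1 and 89.3 CPM, NK markers at 239 and 335 CPM with Ncr1 and Klra4 at 0 in combination, and lung epithelial, endothelial and stromal markers at 41.1 and 264 CPM. The NK barcodes differed in make-up between the libraries. Lyz2 stood there at 130 CPM in ERBB2i and 11017 CPM in combination, Cybb at 5.60 and 1176 CPM and Mmp12 at 93.9 and 1981 CPM, whereas Nkg7 stood at 2734 and 685 CPM. The part of this in the NK values below was not tested.

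Across all genes, 11333 had at least 20 UMIs summed over the CD8 barcodes of both libraries. Of these, 533 (4.7% of all) were 2-fold or more higher in combination and 915 (8.07%) were 2-fold or more lower. Most of the tested genes were tumour-marked. Of the 1322 that were not, 84 (6.35%) were higher and 85 (6.43%) lower. In tumour-poor barcodes 9010 genes were tested, of which 398 (4.42%) were higher and 568 (6.3%) lower; of 5008 genes not tumour-marked there, 149 (2.98%) were higher and 207 (4.13%) lower. The median log2 ratio of combination over ERBB2i, which is the scale of all ratios below, was -0.08 over all genes. Gene lists are described against these figures, with how many of their genes passed 2-fold and where their median lay.

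Cytotoxic effector genes were divided between the libraries: Gzma and Gzmb were higher in combination, and Gzmk was higher in ERBB2i. Of 17 tested genes of the list, 2 were 2-fold or more higher in combination and 1 was lower, and the median log2 ratio was 0.16. The summed level was 5028 CPM in ERBB2i and 6016 CPM in combination.

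Gzma, a tryptase-like granzyme (GRCm38.p6 chr13:113093824-113100981, minus strand), had 317 UMIs in ERBB2i, or 148 CPM (interval 132 to 166), and 1172 UMIs in combination, or 935 CPM (882 to 990). The log2 ratio was 2.66 (2.48 to 2.84), and 2.85 in tumour-poor barcodes. These UMIs came from few barcodes. In ERBB2i 53 barcodes held Gzma and 4 of them held 50% of its UMIs, while in combination 94 barcodes held it, 8 of them held 50%, and 1 barcode alone held 311 of them. Without the top barcode of each library the ratio was 2.51. After thinning, 2.64% of CD8 barcodes in ERBB2i (1.77 to 3.77%) and 11.2% in combination (8.79 to 14.0%) held Gzma, against 0.527% and 0.432% of B cell barcodes. Both the level and the share of barcodes were therefore higher in combination, with no overlap of the intervals.

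Gzmb, the aspartate-cleaving granzyme of activated killer cells (chr14:56258836-56262334, minus strand), stood at 125 CPM in ERBB2i (111 to 141) and 396 CPM in combination (362 to 433). Its log2 ratio was 1.66 (1.44 to 1.88), and 2.01 in tumour-poor barcodes. Gzmb was found after thinning in 4.91% (3.71 to 6.36%) and 10.5% (8.20 to 13.2%) of CD8 barcodes. The direction was that of Gzma, with a smaller difference.

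Gzmk (chr13:113171630-113180965, minus strand) lay close to Gzma on the same chromosome and went the other way. It stood at 384 CPM in ERBB2i (358 to 411) and 172 CPM in combination (150 to 197), with a log2 ratio of -1.16 (-1.38 to -0.94) and -1.28 in tumour-poor barcodes. It was spread over many barcodes, 360 in ERBB2i and 111 in combination, and no barcode held more than 14 UMIs. The thinned share was 17.8% (15.6 to 20.2%) in ERBB2i and 9.54% (7.32 to 12.2%) in combination, again without overlap.

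Other effector genes differed less. Perforin, Prf1, stood at 106 CPM in ERBB2i and 95.7 CPM in combination, a log2 ratio of -0.14 whose interval (-0.47 to 0.18) included 0. Nkg7 stood at 2183 and 1837 CPM (log2 ratio -0.25, -0.32 to -0.18), a small difference beyond counting error. The cytokine gene Ifng stood at 78.5 and 56.6 CPM, with a log2 ratio of -0.47 (-0.89 to -0.06) that in tumour-poor barcodes was -0.26 (-0.73 to 0.19). The death ligand Fasl read 64.1 and 70.2 CPM, not distinguishable at this depth. Ly6c2, a surface protein of memory and effector CD8 T cells, leaned to combination, at 823 and 1200 CPM (log2 ratio 0.54, 0.44 to 0.64), although reads of its near-identical neighbour Ly6c1 may be shared with it. The lectin receptors Klrd1 and Klrk1, which sense class I-like ligands, had log2 ratios of 0.26 (0.05 to 0.46) and 0.48 (0.19 to 0.76).

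**Figure D2:**
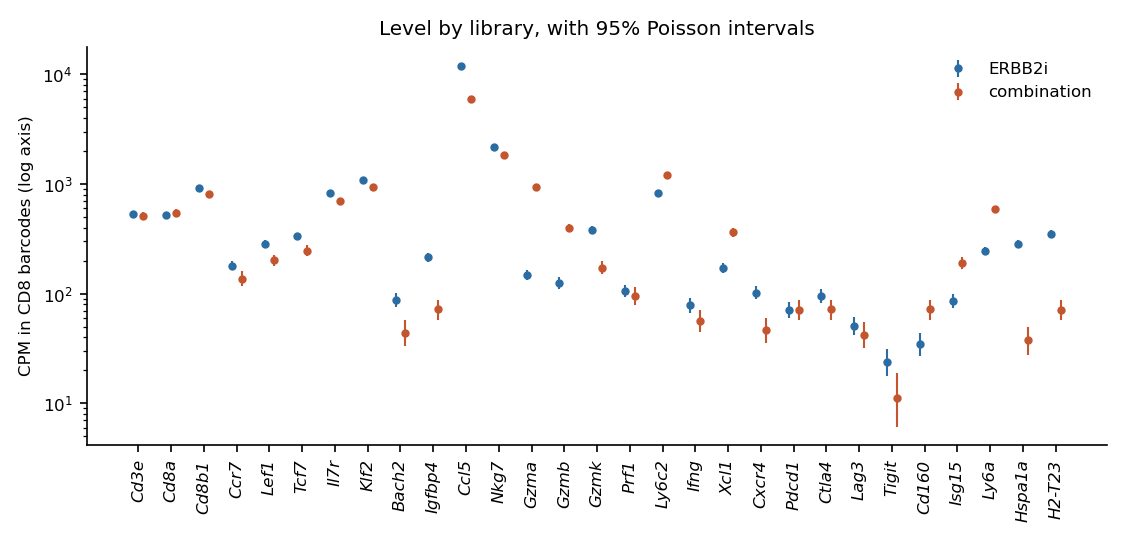
Levels of named genes in CD8 barcodes (y axis, CPM, log axis) in ERBB2i and combination; each point is 1 library, and bars are exact Poisson 95% intervals that cover counting error only. Gzma, Gzmb and Ly6a lay higher in combination, and Ccl5, Gzmk, Hspa1a and H2-T23 lay higher in ERBB2i.

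Chemokine genes and their receptors were mostly lower in combination. Of 10 tested genes, 3 were 2-fold or more lower, 1 was 2-fold or more higher and 8 lay below 0, with a median log2 ratio of -0.61; the summed level was 13057 CPM in ERBB2i and 6837 CPM in combination. Ccl5 (chr11:83525778-83530518) accounted for most of this sum. By the mean CPM of the 2 libraries it ranked 3 among the 20 most abundant genes. In combination alone it lay below Actb, Tmsb4x, Gm42418 and Malat1. It stood at 12028 CPM in ERBB2i (11881 to 12175) and 5918 CPM in combination (5784 to 6054), a log2 ratio of -1.02 in all and in tumour-poor barcodes alike. The share of barcodes that held it differed far less than its level, while 10 or more Ccl5 UMIs were held by 621 of 1099 barcodes in ERBB2i and 255 of 608 in combination.

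Ccl4, a chemokine of activated T cells, stood at 414 and 272 CPM (log2 ratio -0.61, -0.79 to -0.43), and the related Ccl3 at 55.2 and 43.9 CPM with an interval that included 0. Among receptors, Cxcr4, which binds CXCL12, stood at 102 CPM in ERBB2i and 46.2 CPM in combination (log2 ratio -1.15, -1.59 to -0.72). Cxcr3, the receptor of interferon-induced chemokines, stood at 120 and 78.9 CPM (-0.61, -0.96 to -0.27). The gut-homing receptor Ccr9 rested on 38 and 7 UMIs. Xcl1, a chemokine for cross-presenting dendritic cells, was the exception: it stood at 173 CPM in ERBB2i and 362 CPM in combination, a log2 ratio of 1.07 (0.87 to 1.27). In ERBB2i 1 barcode held 173 of its 369 UMIs, and in combination 1 barcode held 108 of 454. Without these the log2 ratio of Xcl1 was 1.59, while in tumour-poor barcodes it was 0.92 (0.71 to 1.14), under 2-fold. With that, 0 of the 10 chemokine genes were 2-fold or more higher in tumour-poor barcodes. The thinned shares were 4.09% (3.00 to 5.44%) and 7.57% (5.59 to 9.96%).

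Interferon-stimulated genes were higher in combination as a group in CD8 barcodes. In CD4 barcodes the same list had a median log2 ratio of -0.53. The CD4 medians of the other T cell lists were negative as well. They were -0.39 for the receptor complex, -0.32 for class I, -0.33 for co-stimulation and -1.21 for effector genes. That of the myeloid list was positive. No interferon difference specific to CD8 barcodes is therefore read from the CD4 value. In CD8 barcodes 13 of 15 tested genes lay above 0, 2 were 2-fold or more higher and 0 were 2-fold or more lower. The median log2 ratio was 0.61, and 0.51 in tumour-poor barcodes. Isg15, a ubiquitin-like protein, stood at 86.5 CPM in ERBB2i and 192 CPM in combination (log2 ratio 1.15, 0.87 to 1.44). Ly6a, the surface antigen Sca-1, stood at 245 and 590 CPM (1.27, 1.10 to 1.43). Both were beyond counting error, and in tumour-poor barcodes their log2 ratios were 1.26 and 1.33. The antiviral genes Ifit1 and Ifit3 had log2 ratios of 0.92 and 0.62, and Ifi27l2a had 0.67. Irf1, a factor that carries the interferon signal, had a log2 ratio of -0.04 with an interval that included 0.

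After thinning, Isg15 was found in 4.64% (3.47 to 6.06%) and 8.39% (6.31 to 10.9%) of CD8 barcodes, against 0.659% and 2.16% of B cell barcodes. Isg15 was also higher in combination in B cell barcodes (log2 ratio 1.35) and in NK barcodes (2.37), whereas in CD4 barcodes the log2 ratio was -0.69 with an interval (-1.78 to 0.27) that included 0. Ly6a differed in NK barcodes (1.68) and was near 0 in CD4 (0.08) and B cell barcodes (-0.08).

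Upstream sequences of 2 genes of this list are shown because both hold the letters of the interferon-stimulated response element, the DNA motif that interferon-activated factors bind. The motif was searched as GAAA followed, after any 2 bases, by GAAA (TTTC on the other strand), in the 250 bases before each RefSeq start on GRCm38.p6. It occurred in 978 of 32851 such windows (2.98%), and in 5 of the 8 tested interferon-stimulated genes with a window, namely Isg15, Ifit1, Ifit3, Bst2 and Gbp2. Capitals mark the matches, of which the 3 in Isg15 overlap. Isg15 is given at chr4:156200819-156201068, minus strand, and Ifit3 at chr19:34583279-34583528, plus strand.
Isg15: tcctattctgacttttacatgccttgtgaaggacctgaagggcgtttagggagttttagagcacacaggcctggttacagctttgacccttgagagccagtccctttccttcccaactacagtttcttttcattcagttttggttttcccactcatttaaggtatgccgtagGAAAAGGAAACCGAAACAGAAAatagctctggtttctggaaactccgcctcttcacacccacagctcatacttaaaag
Ifit3: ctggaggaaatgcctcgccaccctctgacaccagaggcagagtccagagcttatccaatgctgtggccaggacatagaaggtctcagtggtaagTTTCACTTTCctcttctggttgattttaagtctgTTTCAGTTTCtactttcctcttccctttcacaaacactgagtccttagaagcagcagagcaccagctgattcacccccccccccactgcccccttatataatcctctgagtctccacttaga
A match is a description of letters and not evidence of binding in these cells.

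Genes of naive and central memory cells leaned to ERBB2i. All 12 tested genes of the list had log2 ratios below 0, with 2 of them 2-fold or more lower in combination and a median of -0.39, and -0.45 in tumour-poor barcodes; the summed level was 4325 CPM in ERBB2i and 3351 CPM in combination. The lymph node homing receptor Ccr7 stood at 180 and 137 CPM (log2 ratio -0.40, -0.66 to -0.13). Lef1 stood at 284 and 201 CPM (-0.50, -0.72 to -0.28), and Tcf7 at 336 and 246 CPM (-0.45, -0.64 to -0.25). The differences of these genes were under 2-fold and beyond counting error. After thinning, Ccr7 was found in 9.92% of CD8 barcodes in ERBB2i and 9.87% in combination. Lef1 was found in 13.8% and 10.7%, and Tcf7 in 16.5% and 14.6%. The intervals of these shares overlapped for each gene. In CD4 barcodes the same list had a median log2 ratio of -0.59, the GIMAP list described next -0.68 and the chemokine list -2.34.

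The interleukin-7 receptor gene Il7r, which sustains resting T cells, stood at 830 and 703 CPM. Bach2, a repressor that restrains effector genes, stood at 88.4 and 43.9 CPM (log2 ratio -1.01, -1.47 to -0.57), and was one of the 2 genes past 2-fold. The other, Igfbp4, was tumour-marked, and its log2 ratio of -1.57 was -0.9995 in tumour-poor barcodes. Genes of the GIMAP family, GTPases that support lymphocyte survival, were lower by less: all 6 tested lay below 0, 0 passed 2-fold, and the median log2 ratio was -0.31. The 15 genes of the T cell receptor complex and its signalling, which include the 3 CD3 genes of the rule, had a median log2 ratio of -0.05 with 0 past 2-fold in either direction. Trac, the constant part of the receptor alpha chain, stood at 619 and 604 CPM.

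Transcription factors of effector and exhausted cells were lower in combination more often than higher. Of 14 tested, 3 were 2-fold or more lower and 1 was 2-fold or more higher, and the median log2 ratio was -0.42. In tumour-poor barcodes 2 were lower (Batf and Nr4a1), 0 were higher and the median was -0.26. The 1 higher gene, Id3, an inhibitor of E proteins, was tumour-marked, and its log2 ratio of 1.04 was 0.52 in tumour-poor barcodes. The third lower gene, Zeb2, was tumour-marked as well, at -1.64 in all and -0.21 in tumour-poor barcodes. Batf, an AP-1 factor that acts after receptor stimulation, stood at 80.9 CPM in ERBB2i and 38.3 CPM in combination (log2 ratio -1.08, -1.57 to -0.61). Nr4a1, an early target of receptor signalling, stood at 110 and 51.0 CPM (-1.11, -1.53 to -0.70), and Nr4a2 at 119 and 71.0 CPM. Eomes, a factor of memory and cytotoxic cells, stood at 102 and 70.2 CPM (-0.54, -0.91 to -0.17), and Tbx21, its relative T-bet, at 39.3 and 27.9 CPM with an interval that included 0. Tox, a factor of exhausted T cells, was tumour-marked; its log2 ratio was -0.24 in all and -0.58 (-0.91 to -0.27) in tumour-poor barcodes. Id2, a relative of Id3, was tumour-marked as well and higher in combination, at 0.72 in all and 0.47 (0.31 to 0.64) in tumour-poor barcodes.

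Inhibitory receptor genes showed little common direction. Of 10 tested, 1 was 2-fold or more higher, 1 was 2-fold or more lower, and the median log2 ratio was 0.00. In tumour-poor barcodes 2 were higher, 0 were lower and the median was -0.11. Pdcd1, which encodes PD-1, the target of the antibody in the combination group, stood at 71.1 CPM in ERBB2i (60.2 to 83.3) and 71.0 CPM in combination (57.0 to 87.3). Its log2 ratio was 0.00 with an interval of -0.40 to 0.38, so that a difference of up to that size could not be seen at this depth. Lag3 stood at 51.0 and 42.3 CPM and Havcr2, the TIM-3 gene, at 16.4 and 26.3 CPM, both with intervals that included 0. Ctla4 stood at 95.4 and 71.8 CPM (-0.41, -0.78 to -0.05), while in tumour-poor barcodes the interval (-0.66 to 0.16) included 0. Cd160, a receptor of cytotoxic lymphocytes, stood at 34.6 and 71.8 CPM (1.05, 0.59 to 1.52). Tigit rested on 51 and 14 UMIs, and its log2 ratio of -1.09 was -0.67 (-1.68 to 0.25) in tumour-poor barcodes.

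Co-stimulatory and cytokine receptors had 2 of 11 tested genes 2-fold or more higher in combination, 0 lower and a median log2 ratio of 0.27. In tumour-poor barcodes 1 of 10 tested was higher, 0 were lower and the median was 0.15. The genes past 2-fold in all CD8 barcodes were Tnfrsf4, the OX40 gene, with 15 and 36 UMIs, and Il2ra, the high-affinity interleukin-2 receptor chain, with 6 and 15. Tnfrsf9, the 4-1BB gene of recently stimulated cells, stood at 24.3 and 42.3 CPM (0.80, 0.22 to 1.38). Cd28 stood at 158 and 143 CPM, with an interval that included 0. Among 11 tested residency and adhesion genes, 2 were 2-fold or more higher in combination, namely Xcl1 (described above) and Itga1, 0 were 2-fold or more lower, and the median log2 ratio was 0.16. In tumour-poor barcodes 1 of them, Itga1, passed 2-fold. Itga1, the collagen-binding CD49a integrin, stood at 12.2 and 43.1 CPM (1.82, 1.12 to 2.56), and Itgae, the epithelium-binding CD103 integrin, at 36.5 and 19.1 CPM (-0.93, -1.66 to -0.25). These integrins of tissue-resident cells thus went opposite ways. Itga4, which mediates entry from vessels, stood at 373 and 242 CPM (-0.62, -0.82 to -0.43). Cxcr6, Cd69 and Rgs1 differed by at most 0.16 on the log2 scale, each with an interval that included 0.

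**Figure D3:**
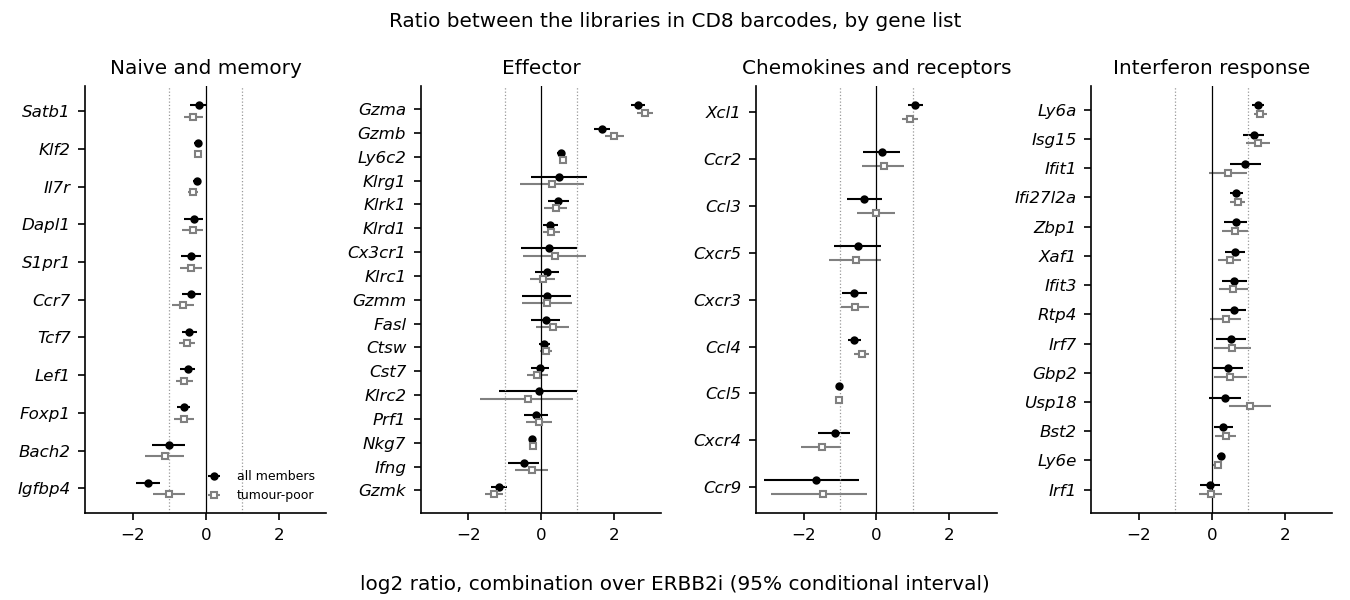
Log2 ratio of combination over ERBB2i (x axis) for tested genes of 4 lists (y axis), in all CD8 barcodes (filled circles) and in tumour-poor ones (open squares), with exact conditional 95% intervals and dotted lines at 2-fold. The naive and memory genes drawn lay below 0 and most interferon-stimulated genes above it, while Gzma and Gzmb stood apart from Gzmk among effector genes.

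Cell cycle genes carried much tumour RNA in the CD8 barcodes. All 12 tested were tumour-marked, with a median log2 ratio of -0.10 that was 0.40 in tumour-poor barcodes. Mki67, a protein of dividing cells, had log2 ratios of -0.33 in all and 0.65 in tumour-poor barcodes, and Top2a, which untangles replicated DNA, -0.37 and 0.41. Ccnb2, a mitotic cyclin, had 0.85 and 1.90. The thinned share with an Mki67 UMI was 16.3% in ERBB2i and 13.2% in combination over all CD8 barcodes, against 16.5% and 12.5% of B cell barcodes and 39.8% and 27.5% of tumour barcodes. In tumour-poor CD8 barcodes it was 10.8% and 10.1%, for which B cell barcodes were not divided in the same way. No direction is read from these genes.

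The class I presentation genes of the CD8 barcodes themselves were slightly lower in combination, apart from a large difference in one of them. Of 10 tested, 7 lay below 0 and 1 was 2-fold or more lower, with a median log2 ratio of -0.26. B2m, the light chain of all class I molecules, stood at 4004 and 3151 CPM (-0.35, -0.40 to -0.29). H2-D1 stood at 3463 and 2618 CPM (-0.40) and H2-K1 at 2643 and 2367 CPM (-0.16); reads of these heavy chain genes and of H2-Q7 may be shared, since their sequences are similar. Tap1, a peptide transporter whose gene lies next to Psmb9, stood at 76.2 and 106 CPM (0.48, 0.14 to 0.82).

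H2-T23 (chr17:36029977-36032701, minus strand) encodes Qa-1, the non-classical class I molecule that presents to CD94/NKG2 receptors. It stood at 353 CPM in ERBB2i and 71.0 CPM in combination, a log2 ratio of -2.31 (-2.65 to -1.99), with 754 and 89 UMIs and no more than 9 in any barcode. The difference was of like size in CD4 barcodes (301 and 50.1 CPM, log2 ratio -2.58), B cell barcodes (287 and 49.7 CPM, -2.53) and NK barcodes (237 and 55.8 CPM, -2.09), and tumour barcodes stood at 24.7 and 6.79 CPM. The lower level in combination was present in each cell class examined.

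The heat shock genes Hspa1a and Hspa1b showed the same pattern. Hspa1a (chr17:34969359-34972156, minus strand) and Hspa1b (chr17:34956429-34959238, minus strand), stress-induced chaperones, stood at 284 and 162 CPM in ERBB2i and at 37.5 and 19.1 CPM in combination. The log2 ratios were -2.92 (-3.38 to -2.49) and -3.08 (-3.74 to -2.48), the first of the 10 lowest genes named below. Hspa1a was found after thinning in 12.9% (10.99 to 15.05%) and 1.81% (0.907 to 3.21%) of CD8 barcodes, and in 8.70% and 0.778% of B cell barcodes. In CD4, B cell and NK barcodes its log2 ratios were -4.15, -3.92 and -1.84. The part of tissue handling, which is known to raise such genes, was not tested. The remaining immediate early and stress genes differed less: of 15 tested in all, 3 were 2-fold or more lower (Hspa1a, Hspa1b and Fosb) and 0 were 2-fold or more higher, with a median log2 ratio of -0.23. Junb, an AP-1 subunit, stood at 870 and 519 CPM (-0.74, -0.88 to -0.61).

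Hspa1a and Hspa1b are near-identical copies, so that reads can be split between them and their separate values are uncertain. The 250 bases before each start are shown because they differ at only 3 positions, given in capitals, with a longest identical run of 201 bases (RefSeq, GRCm38.p6, both minus strand, chr17:34972157-34972406 for Hspa1a and chr17:34959239-34959488 for Hspa1b).
Hspa1a: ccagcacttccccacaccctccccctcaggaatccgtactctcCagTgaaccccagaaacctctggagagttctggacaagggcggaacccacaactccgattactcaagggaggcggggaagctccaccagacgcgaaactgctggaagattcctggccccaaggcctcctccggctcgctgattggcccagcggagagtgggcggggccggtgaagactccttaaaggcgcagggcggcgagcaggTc
Hspa1b: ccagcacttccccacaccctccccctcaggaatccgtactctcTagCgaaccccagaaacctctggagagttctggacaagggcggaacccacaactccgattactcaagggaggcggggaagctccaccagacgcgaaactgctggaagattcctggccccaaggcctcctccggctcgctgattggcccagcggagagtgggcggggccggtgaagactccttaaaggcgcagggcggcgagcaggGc
H2-T23 and these genes lie within 1076273 bases of chromosome 17, in the major histocompatibility complex. Of 43 tested genes in this interval, 5 were 2-fold or more lower in combination (Hspa1b, Hspa1a, Sapcd1, Ier3 and H2-T23), 3 were 2-fold or more higher (Aif1, Lst1 and Vars2), and the median log2 ratio was -0.03. The interval was drawn from Hspa1b to H2-T23 because of their low ratios, so these genes and Hspa1a are counted by construction. Over all tested genes, 8.07% were lower and 4.7% higher, and no regional pattern is read from this count.

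Ranked by ratio alone among genes that were not tumour-marked, the 10 genes highest in combination were Cybb, AA467197, Cd36, Csf2rb, Mmp12, Clec4a2, Gm36723, Mpeg1, Tnfaip2 and Slc15a3, with log2 ratios from 4.45 to 2.84. Several are known from macrophages, such as Cybb, the NADPH oxidase subunit, Mmp12, macrophage elastase, and Mpeg1, a pore-forming protein of phagocytes. Few barcodes carried them: 1 barcode held 77 of the 179 Cybb UMIs in combination, and 1 held 64 of the 108 Mmp12 UMIs. Gm36723 was spread over 24 barcodes of combination. The 10 lowest were Hspa1b, Hspa1a, Rnf43, Rgs14, Smim3, H2-T23, Naip2, Gm26887, Gm33782 and Trgc4, with log2 ratios from -3.08 to -1.87. Rnf43, a ubiquitin ligase that dampens Wnt signalling, rested on 41 and 4 UMIs, and Rgs14, a regulator of G protein signalling, on 47 and 5. Trgc4, a constant segment of the gamma receptor chain, rested on 87 and 14.

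The most abundant transcripts of the CD8 barcodes were mainly housekeeping and lymphocyte genes. Actb stood at 9989 CPM in ERBB2i and 14351 CPM in combination (log2 ratio 0.52), the nuclear RNA Malat1 at 9731 and 6432 CPM (-0.60), and Ms4a4b, a membrane protein of T cells, at 2119 and 2436 CPM (0.20). Nnat, a neuronal gene that was tumour-marked, stood at 3852 and 382 CPM, and its log2 ratio of -3.33 was near those in CD4 (-3.34), B cell (-3.28) and NK barcodes (-3.74). A tumour transcript was thus among the 20 most abundant of the CD8 barcodes, and differed alike in each class.

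CD4 T cell barcodes of the same tumour were the most similar cells at hand, and each library gave its own comparison. They were gated by a CD3 and a Cd4 UMI and 0 UMIs of Cd8a, Cd8b1, Rag2 and Dntt. Of 8881 genes tested in both libraries, 97 (1.09%) were 2-fold or more higher in CD8 barcodes in both libraries and 48 (0.54%) were 2-fold or more lower. Of 16 effector genes tested, 10 were 2-fold or more higher in both, with median log2 ratios of CD8 over CD4 of 1.19 in ERBB2i and 3.10 in combination. Ly6c2 was 823 against 63.9 CPM in ERBB2i and 1200 against 50.1 CPM in combination (log2 ratios 3.69 and 4.58), and Klrd1, the CD94 chain, had 2.99 and 3.04. The NKG2D receptor Klrk1 had 2.88 and 3.15. Lower in CD8 barcodes were Cd40lg, the helper ligand of CD4 T cells (-4.93 and -4.16), and Tnfrsf4 (-4.60 and -2.31). Ly6c1 stood at -5.37 and -4.85, but shares near-identical sequence with Ly6c2.

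The CD4 barcodes also differed between the libraries, so that CD8 over CD4 ratios were not equal in them. Ccl5 in CD4 barcodes stood at 5662 CPM in ERBB2i and 949 CPM in combination, against 12028 and 5918 CPM in CD8 barcodes, which gave log2 ratios of 1.09 (1.04 to 1.14) and 2.64 (2.45 to 2.84). Gzma in CD4 barcodes was 72.7 and 12.5 CPM, and its ratios were 1.03 (0.59 to 1.49) and 6.22 (4.67 to 8.50). Gzmb gave 1.11 (0.62 to 1.63) and 3.57 (2.58 to 4.79), and Gzmk 0.28 (0.07 to 0.51) and 1.66 (0.86 to 2.60). Each of these genes was higher in CD8 barcodes in both libraries, by more in combination, with intervals that did not overlap. CD4 barcodes of combination numbered 114 and carried more macrophage RNA, with C1qc at 652 CPM against 39.2 CPM in CD4 barcodes of ERBB2i. The part of this RNA in the CD8 over CD4 ratios was not tested. The Gzma level of CD4 barcodes in combination rested on few UMIs. Gzma in NK barcodes went the other way from the CD8 barcodes, from 4297 CPM in ERBB2i to 1524 CPM in combination, and Gzmb from 422 to 133 CPM. The make-up of the NK barcodes differed between the libraries, as given above for Lyz2 and Nkg7, and its part in these values was not tested. Pdcd1 was lower in CD8 than in CD4 barcodes in ERBB2i (71.1 and 171 CPM, log2 ratio -1.27, -1.63 to -0.91), whereas in combination the log2 ratio was 0.92 with an interval (-0.07 to 2.09) that included 0.

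**Figure D4:**
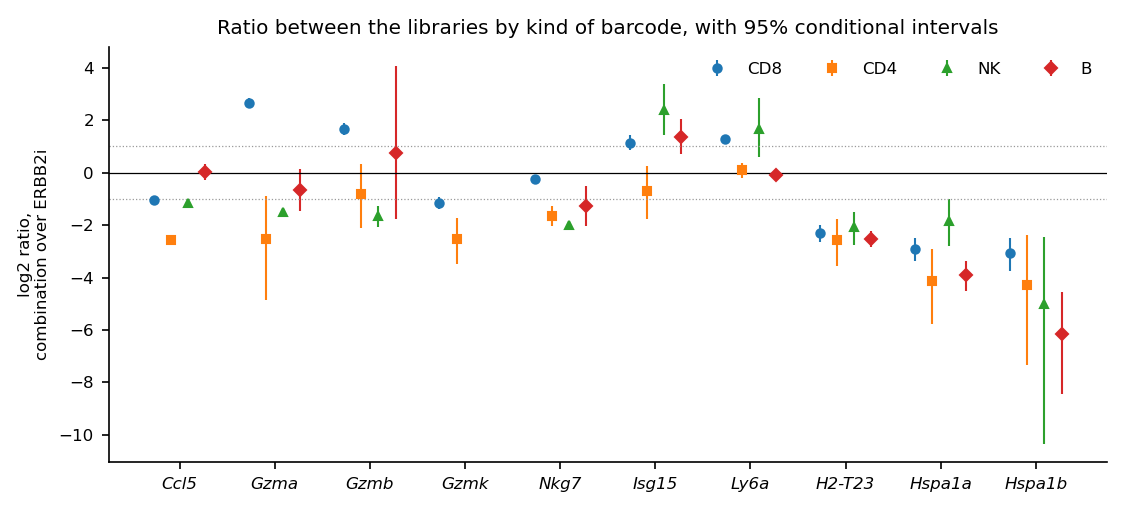
Log2 ratio of combination over ERBB2i (y axis) for 10 genes in CD8, CD4, NK and B cell barcodes, with exact conditional 95% intervals and dotted lines at 2-fold; classes in which a ratio or a finite interval could not be had are not drawn. H2-T23, Hspa1a and Hspa1b lay below 0 in all 4 classes, whereas Gzma lay above 0 in CD8 barcodes and below it in NK and CD4 barcodes.

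Barcodes differed in which granzyme they held. Among tumour-poor barcodes thinned to 500 UMIs, 160 of 843 in ERBB2i (19.0%) and 40 of 464 in combination (8.62%) held Gzmk without Gzma, whereas 13 (1.54%) and 43 (9.27%) held Gzma without Gzmk. Both were found in 12 (1.42%) and 10 (2.16%). Gzma and Gzmb together were found in 6 barcodes in ERBB2i (0.712%) and 23 in combination (4.96%, 3.17 to 7.35%). Gzmk without Gzma was thus the more frequent pattern in ERBB2i by a wide margin, while in combination these 2 patterns were about as frequent as each other.

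**Figure D5:**
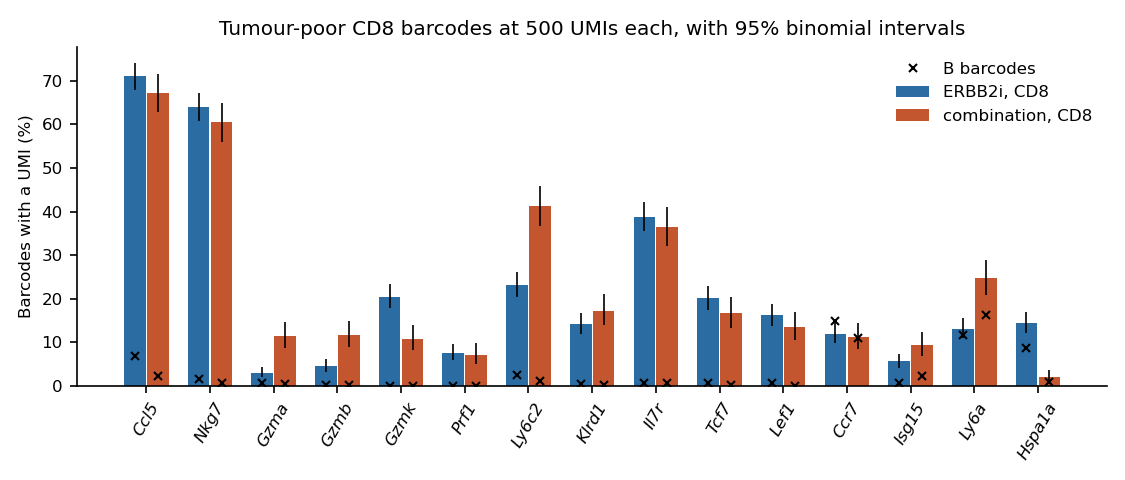
Share of tumour-poor CD8 barcodes with at least 1 UMI of each gene after thinning to 500 UMIs (y axis, percent) in ERBB2i and combination; error bars are exact binomial 95% intervals that cover counting error only, and crosses are B cell barcodes thinned likewise. Gzma, Gzmb and Ly6c2 were found in more barcodes of combination, and Gzmk and Hspa1a in more barcodes of ERBB2i.

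Barcodes with and without Ccl5 differed in the genes they held beside it, in both libraries. Tumour-poor barcodes with a Ccl5 UMI at full depth numbered 644 in ERBB2i and 347 in combination, and those without 199 and 117, with median depths of 1140 and 1217 UMIs against 1282 and 1166. Ccr7 stood at 135 CPM with and 732 CPM without Ccl5 in ERBB2i, and at 105 and 423 CPM in combination, log2 ratios of -2.44 (-2.78 to -2.11) and -2.01 (-2.54 to -1.49). Lef1 had -1.63 and -2.01, and Dapl1, a gene of naive CD8 T cells, -2.74 and -3.45. Gzmk went the other way, at 4.11 (3.29 to 5.07) and 1.89 (1.07 to 2.83), and so did Ccl4 at 4.28 and 2.14, Pdcd1 at 5.20 and 2.20, and the residency receptor Cxcr6 at 2.26 and 1.14. Pdcd1 without Ccl5 rested on 1 UMI in ERBB2i and 4 in combination, with intervals of 2.69 to 10.5 and 0.77 to 4.13. Il7r differed little, at 0.04 (-0.14 to 0.21) and 0.36 (0.09 to 0.64). Xcl1 read higher without Ccl5, at 666 against 172 CPM in ERBB2i and 690 against 513 CPM in combination. In ERBB2i, however, 1 barcode held 173 of the 190 Xcl1 UMIs without Ccl5, against 149 UMIs with it. No direction is read from Xcl1 there. In combination 1 barcode held 108 of all 454 Xcl1 UMIs, and on which side of the split it lay was not examined. Gzma without Ccl5 stood at 7.01 CPM (2 UMIs) in ERBB2i and 325 CPM (56 UMIs) in combination. Gzmb stood at 21.0 CPM (6 UMIs) and 267 CPM (46 UMIs).

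Barcodes with Gzma were compared with the rest in the same way, 44 against 799 in ERBB2i and 69 against 395 in combination. Gzmb was higher with Gzma, at log2 ratios of 2.95 and 1.96, and Rgs1, a regulator that retains lymphocytes in tissue, at 1.20 and 1.27. Tcf7 was lower, at -1.33 and -2.65. The NK genes Fcer1g and Klre1 were higher with Gzma in ERBB2i, at 3.99 and 2.59, and near 0 in combination, at -0.01 and 0.13. Fcer1g is also on the myeloid list, and myeloid RNA was higher in CD8 barcodes of combination, as given above. Not all such genes followed. Eomes, also on the NK list, had 0.58 (-0.33 to 1.37) in ERBB2i and -2.52 (-4.83 to -0.91) in combination. Klrd1 had 0.16 (-0.49 to 0.74) and 0.73 (0.35 to 1.10). Barcodes with Gzma in ERBB2i thus carried transcripts of some NK genes beside T cell transcripts, and their part in the level of Gzma was not tested.

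Receptor variable genes were rarely captured. A Trbv UMI was found in 63 CD8 barcodes of ERBB2i (5.73%) and 23 of combination (3.78%), over 17 and 11 of 35 genes, and a Trav UMI in 64 (5.82%) and 31 (5.10%), over 31 and 18 of 130 genes. Trbv2 was the most frequent in ERBB2i, in 11 of 63 barcodes (17.5%, 9.05 to 29.1%), followed by Trbv12-2 in 7. In combination Trbv12-2 came first, in 6 of 23 (26.1%, 10.2 to 48.4%), followed by Trbv19 in 3. At these numbers no order of use could be told between the libraries.

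The quality filters described for the study remove many of these cells. Its limits on the mitochondrial share and on deviations from the median, read as applied to each library on its own, would keep 802 of the 1099 CD8 barcodes in ERBB2i (73.0%) and 269 of 608 in combination (44.2%). The share of UMIs in the 20 most abundant genes was the measure that removed most, 256 and 328 barcodes. Its median was 16.0% and 15.1% in CD8 barcodes against 10.5% and 9.24% in the whole libraries. Among the kept, tumour-rich barcodes were 29.7% and 49.1%. With only the kept barcodes, the log2 ratio of Gzma was 1.41 in place of 2.66, that of Ly6c2 was 0.06 in place of 0.54, and the median of the cytotoxic effector list was -0.41 in place of 0.16.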

How the data were processed

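Tumours were profiled on SCOPE-chip microfluidics after dissociation, with up to 72 hours between isolation and processing per the methods. The authors deposited 1 matrix of UMI counts per library, made with CeleScope according to the methods; the submitters' processing notes also name Cell Ranger, Scanpy and genome build mm10, without versions. The deposited UMI counts are not normalized; the scaling and log transform that the authors describe for their own analysis are not in them. Deposited counts were read for 5 libraries and 32589 genes with Python 3.11.15, numpy 2.4.6, scipy 1.17.1 and scanpy 1.11.5, and the interval procedures were tested on simulated data.

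Members and gene lists were chosen with earlier results of these data known. Counts were summed over member barcodes and divided by their total (CPM), with exact Poisson, conditional binomial and Clopper-Pearson 95% intervals. Genes needed 20 UMIs in the sum of both libraries; called means past 2-fold. Named genes were those of the lists, the 10 largest log2 ratios per direction (at least 3 UMIs in each library, not tumour-marked, without mitochondrial, ribosomal, haemoglobin, immunoglobulin, variable and gating genes, Xist, Tsix and Y-linked genes; other X-linked genes such as Cybb were kept), the 10 largest CD8 over CD4 ratios by their smaller library, and the 20 most abundant genes. Barcodes were thinned to 500 UMIs with a fixed seed (7), and none was shallower. Tumour-poor barcodes were defined after seeing the data. Doublets were scored with Scrublet and kept. Coordinates and sequences came from RefSeq on GRCm38.p6, where 284 of 290 names matched and 203 had an upstream window. Alternatives covered stricter gating, the study's filters, thinning, scaling, UMI minimum, removal or subtraction of tumour RNA, and each gene's top barcode. Values of some genes are not reported here.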

Additional observations from a re-analysis of the deposited data

Results flagged for a closer look

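The CD8 rule also took barcodes in libraries outside the comparison, at shares above the control: 0.486% of barcodes in vehicle, against 5.35% (4.98 to 5.75%) in anti-PD-1 and 8.30% (7.77 to 8.86%) in combination in response. Both libraries stood out because their share exceeded that of the vehicle library. In them Ptcra, the surrogate chain of immature thymocytes, had 48 and 25 UMIs in the barcodes chosen, whereas it had 0 in ERBB2i and combination. Themis, a signalling gene that is high in developing T cells, stood at 187 CPM in anti-PD-1 and 1673 CPM in combination in response, against 173 CPM in ERBB2i and 96.5 CPM in combination. Nkg7 stood at 342 and 491 CPM, against 2183 and 1837 CPM. In the 47 barcodes of vehicle, Themis stood at 292 CPM, above anti-PD-1, ERBB2i and combination, Ccl5 stood at 22823 CPM and Nkg7 at 2488 CPM.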

How the results depend on the processing

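No paired analysis was possible because each group was 1 library and the results come from no test; leaving out a replicate was likewise not possible. Of 179 values that answer a comparison, recomputed under alternatives, 154 were labelled unchanged and 25 moved. Of 2085 values of single genes or classes, 1722 were labelled unchanged, 360 moved and 3 reversed. Values labelled moved include changes of sign. The effector, co-stimulation and residency medians, 0.16, 0.27 and 0.16 in the main setting, were negative under the study's filters. The cell cycle median, -0.10 in the main setting, was positive under each alternative given below. With at least 2 Cd8 UMIs, members fell to 725 and 405, and the study's filters left 269 in combination. The count of genes 2-fold or more higher was 271 after thinning, 2360 with no UMI minimum and 259 at a minimum of 50; the count of lower genes was 491, 3832 and 444, and 568 in tumour-poor barcodes. Under the study's filters the list medians were -0.51 (receptor complex), -0.79 (naive and memory), -0.41 (effector), -0.37 (co-stimulation), -0.32 (residency), -1.18 (chemokines), -0.62 (class I), 0.028 (cell cycle) and -0.59 (GIMAP); the cause was not tested. Co-stimulation was -0.10 after thinning. The cell cycle median was 0.14 without members over the tumour list share, 0.038 with at least 2 Cd8 UMIs, 0.40 in tumour-poor barcodes and 3.19 with tumour RNA subtracted, and immediate early genes were -0.47 with subtraction. Single-gene values labelled reversed were Zeb2 (1.12, tumour RNA subtracted), Birc5 (0.14, tumour-poor) and Wfdc17 in CD8 over CD4 barcodes of combination (0.31, study filters). Over the alternatives, the log2 ratio lay between 1.41 and 3.34 for Gzma, 1.29 and 2.18 for Gzmb, -1.28 and -1.003 for Gzmk, and -1.26 and -0.89 for Ccl5. Depth limits genes with few UMIs such as Tigit and Tnfrsf4, and the sum over barcodes cannot separate more cells with a gene from more RNA per cell.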

Other observations

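CD8 barcodes also differed from CD4 barcodes of the same tumour in genes outside the T cell lists. Plac8, a small cysteine-rich protein, had log2 ratios of CD8 over CD4 of 3.22 in ERBB2i and 3.73 in combination, and Ifitm1, an interferon-induced membrane protein, 5.33 and 2.64. Samd3 had 2.99 and 2.82, and the antisense RNA Ifngas1 2.08 and 2.90. Lower in CD8 barcodes were the complement genes C1qa, C1qb and C1qc of macrophages, which are on the myeloid list. Their log2 ratios were -1.98, -2.05 and -2.69 in ERBB2i and -2.94, -3.22 and -3.32 in combination. Tspan32, a tetraspanin of blood cells, had -2.31 and -3.18. The median log2 ratio of combination over ERBB2i for the myeloid list was 3.596 in CD4 barcodes and 2.15 in CD8 barcodes.

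In ERBB2i, the 44 tumour-poor CD8 barcodes with Gzma held 18 of the 20 Klra4 UMIs, an NK receptor gene of a family with near-identical members, and the 799 without Gzma held the remaining 2.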
